A study of Mus musculus with 6 samples.

Results

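The protein arginine methyltransferase (PRMT) genes were followed in MuSCs (muscle stem cells, which rebuild muscle fibres after injury) of control and Taf4asKO mice. The members were taken by gene symbol, namely Prmt1, Prmt2, Prmt3, Carm1, Prmt5, Prmt6, Prmt7 and Prmt9, and all 8 had a row among the 22081 genes of the deposited table. RNA-seq of total RNA from freshly isolated, sorted MuSCs was available for 3 control and 3 Taf4asKO libraries, all from adult C57BL/6 mice. Per the study's methods, Taf4asKO mice and their controls carried the loxP-flanked Taf4a allele on both chromosomes. The sample titles call the control libraries WT, and the study also lists wild-type mice, so the control genotype is not certain. Taf4asKO mice also carried a tamoxifen-inducible Cre under Pax7 and received tamoxifen, so deletion is limited to cells that express Pax7 at that time. Whether the controls of the RNA-seq received tamoxifen is not given in the sources used here. Controls as the study describes them were littermates with or without the Cre allele, and a Pax7-zsGreen reporter could be present in either group. Cells were sorted as negative for SCA1, CD45 and CD31 and positive for integrin-α7, or by the reporter, and which gate a library used is not given in the sources used here. The labels do not say which control library had which genotype, nor whether a library came from 1 animal. P-values therefore measure the spread between these libraries.

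PRMT enzymes move methyl groups from S-adenosylmethionine onto arginine side chains of histones and of many RNA-binding proteins. Type I enzymes (PRMT1, PRMT2, PRMT3, CARM1, PRMT6) make asymmetric dimethylarginine, type II enzymes (PRMT5, PRMT9) make symmetric dimethylarginine, and PRMT7, the type III enzyme, stops at monomethylarginine. In MuSCs, CARM1 is known for methylating PAX7 ahead of Myf5 transcription, and PRMT1, PRMT5 and PRMT7 have each been tied to stem cell expansion or differentiation.

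Values are normalized counts, that is reads per gene divided by a size factor of the library and rounded by the authors. Library totals lay between 12338676 and 14551732 normalized counts. Taf4 itself, read at gene level, had 613, 534 and 478 normalized counts across the controls and 631, 565 and 574 in Taf4asKO (log2 fold change 0.13, adjusted p by limma 0.524), so the groups overlapped. Per the study's methods the floxed allele loses only some of its exons, so a total over the whole gene need not fall and does not check the labels, and directions below refer to the groups as labelled. All 10 MuSC markers were detected in every library. Past the threshold 4 of them were lower and 2 higher in Taf4asKO, beside 12.6% of all tested genes in either direction. Their summed level overlapped between groups (40641 to 43338 in control, 40448 to 42495 in Taf4asKO). Pax7 held 12082 to 13007 and 10363 to 11164 of it, and the other 9 summed to 28559 to 30331 and 29960 to 31826. Since these markers moved in both directions, the sum does not measure MuSC content. Markers of other cell types, each above 0 in every library where it had a row, moved with the groups in part. The summed level of the 5 Schwann cell markers was 1273 to 3112 in control and 3978 to 4902 in Taf4asKO, with all 5 past the threshold. The 6 endothelial markers summed to 216 to 535 and 552 to 969, and the 3 immune markers with a row to 422 to 538 and 666 to 924, none past the threshold. The 8 fibro-adipogenic markers summed to 64149 to 89996 and 41838 to 65067, with 1 lower, the 6 mural markers to 20767 to 26011 and 21088 to 25881, with 2 higher, and the 6 myofibre markers to 1193 to 3772 and 2141 to 2712, with 0 called. Some of these sums rest on 1 gene. Without the collagen gene Col3a1, the marker that was lower (46225 to 47700 against 13082 to 17573), the other 7 fibro-adipogenic markers summed to 17924 to 42296 in control and 28756 to 47494 in Taf4asKO. Without Notch3 the other 5 mural markers summed to 4929 to 8560 and 10351 to 13208. Without Lyz2 the other 2 immune markers summed to 131 to 328 and 195 to 201, and without Cdh5 the other 5 endothelial markers to 75 to 262 and 236 to 549. Per the study's reporting, reanalysed sorted cells were not fully pure, and purity per library is not given in the sources used here. The part of endothelial, immune, mural, myofibre and Schwann cells in the results below was not tested.

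Of the 8 PRMT genes, Prmt1 and Prmt3 were lower in Taf4asKO MuSCs, with changes of -31.1% and -35.7%, and none was higher. The other 3 type I genes did not pass, with -19.2% for Carm1, -13.5% for Prmt6 and 7.8% for Prmt2. Values for the type II and type III genes were -6.14% (Prmt5), 5.77% (Prmt9) and 5.08% (Prmt7). A gene passed the threshold with an adjusted p under 0.05 (limma on log2(value + 1), Benjamini-Hochberg over 18562 genes) and a fold change of at least 1.3. Among all tested genes 6.71% were called lower and 5.93% higher (12.6% in either direction), against 2 and 0 of the 8 members. With the replicate number of the titles as a block these shares were 8.98% and 9.09%, again against 2 and 0 members. The groups did not overlap, with Taf4asKO lower, for 3 of the 8 members and for 16.4% of tested genes (33.0% in either direction). The median log2 fold change was -0.15 over the 8 members and 0.004 over all tested genes.

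**Figure D1:**
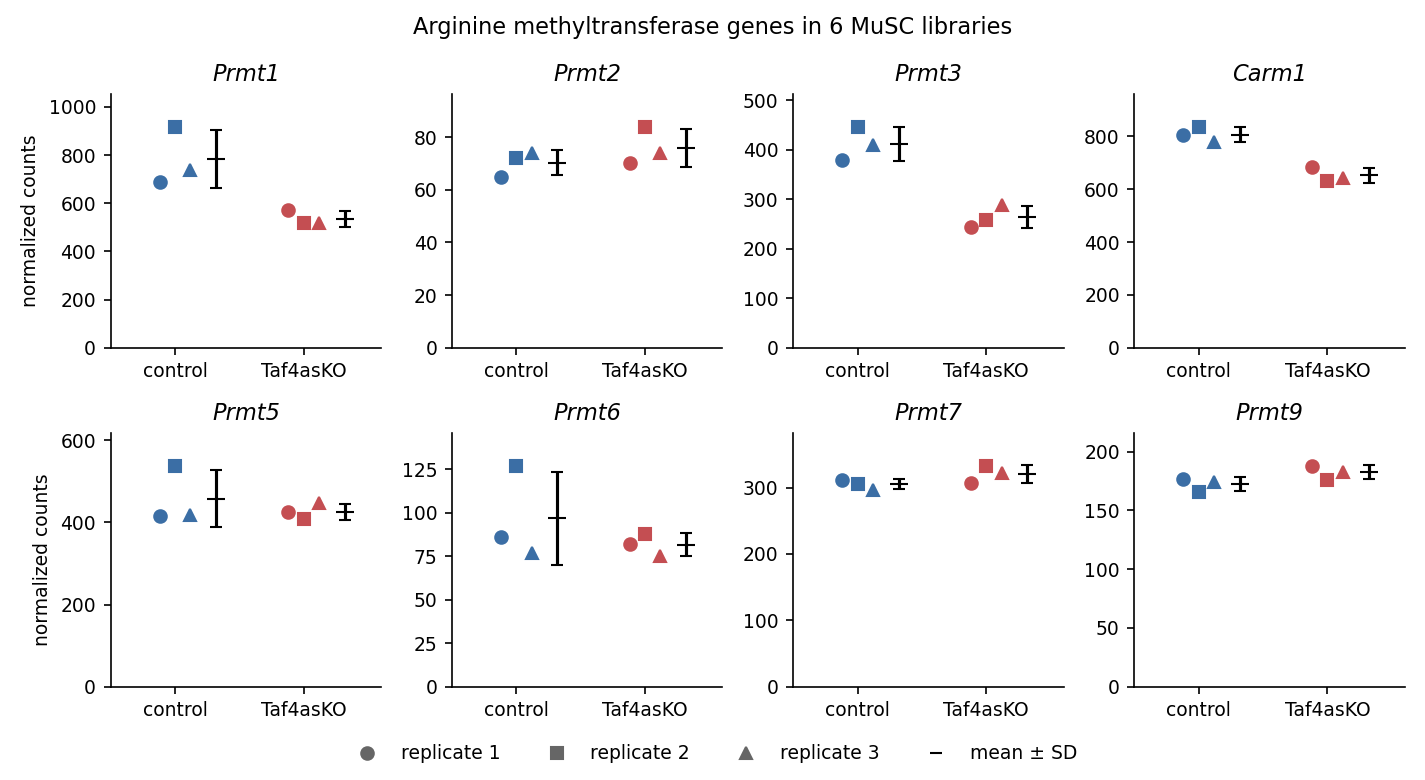
Normalized counts (vertical axes, from 0) of the 8 PRMT genes in each control (blue) and Taf4asKO (red) library, with the marker shape giving the replicate number and the black bar the mean ± SD (n = 3). For Prmt1, Prmt3 and Carm1 all 3 Taf4asKO points lie below all 3 control points, and for the other 5 genes the groups overlap.

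The stretches before the start of 3 members are shown because Prmt1 and Prmt3 were the called members, while Prmt5 held the most CCAAT matches and was not called. The study concerns TAF4A together with the CCAAT-binding factor NF-Y and with SP1, which binds GC boxes. Windows of 250 bases before the RefSeq gene start (build GRCm38.p6) were found for 7 of the 8 members, and Carm1 had no entry. Gene coordinates here come with the deposited values and equal those of GENCODE for these 7 except Prmt6. These gene models start farther upstream than RefSeq for 4 of them. The last 148 bases of the window of Prmt1, 12 of Prmt3, 55 of Prmt5 and 118 of Prmt7 therefore lie inside those models. Printed is only what lies before both starts. Capitals mark CCAAT, the core of the NF-Y motif, and GGGCGG, the core of the GC box, searched on both strands (as ATTGG and CCGCCC on the other), with no overlap between the motifs. The stretches are chr7:44986569-44986670 on the minus strand for Prmt1, chr7:49778108-49778345 on the plus strand for Prmt3 and chr14:54517526-54517720 on the minus strand for Prmt5, each written 5′ to 3′ along the gene.
Prmt1: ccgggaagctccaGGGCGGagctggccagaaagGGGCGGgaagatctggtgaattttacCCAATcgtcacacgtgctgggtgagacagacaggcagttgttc
Prmt3: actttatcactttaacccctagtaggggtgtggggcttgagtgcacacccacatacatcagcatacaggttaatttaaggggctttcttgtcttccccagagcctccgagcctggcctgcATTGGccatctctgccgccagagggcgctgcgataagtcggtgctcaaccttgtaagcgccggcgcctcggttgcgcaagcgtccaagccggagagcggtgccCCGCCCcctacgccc
Prmt5: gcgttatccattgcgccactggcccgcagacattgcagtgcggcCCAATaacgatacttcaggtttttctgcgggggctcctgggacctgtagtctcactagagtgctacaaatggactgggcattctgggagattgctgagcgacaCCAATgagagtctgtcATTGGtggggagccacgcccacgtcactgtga
Over the whole window Prmt1 held 3 CCAAT and 4 GGGCGG matches, of which 2 and 2 lie inside its GENCODE model. Prmt3 held 1 of each, both before the model, and Prmt5 held 4 CCAAT matches, 1 of them inside, and 0 GGGCGG matches. Prmt2 held 1 of each and 1 TATAAA on the other strand, Prmt7 held 1 GGGCGG inside its model, and Prmt6 and Prmt9 held no match to the motifs searched. Of 32851 such windows in RefSeq, 33.8% held at least 1 CCAAT, 2.79% at least 3 and 0.84% at least 4. At least 1 GGGCGG was held by 32.7% and at least 4 by 4.09%, and TATAAA by 12.4%. A match describes letters, and binding was not measured in these files.

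**Figure D2:**
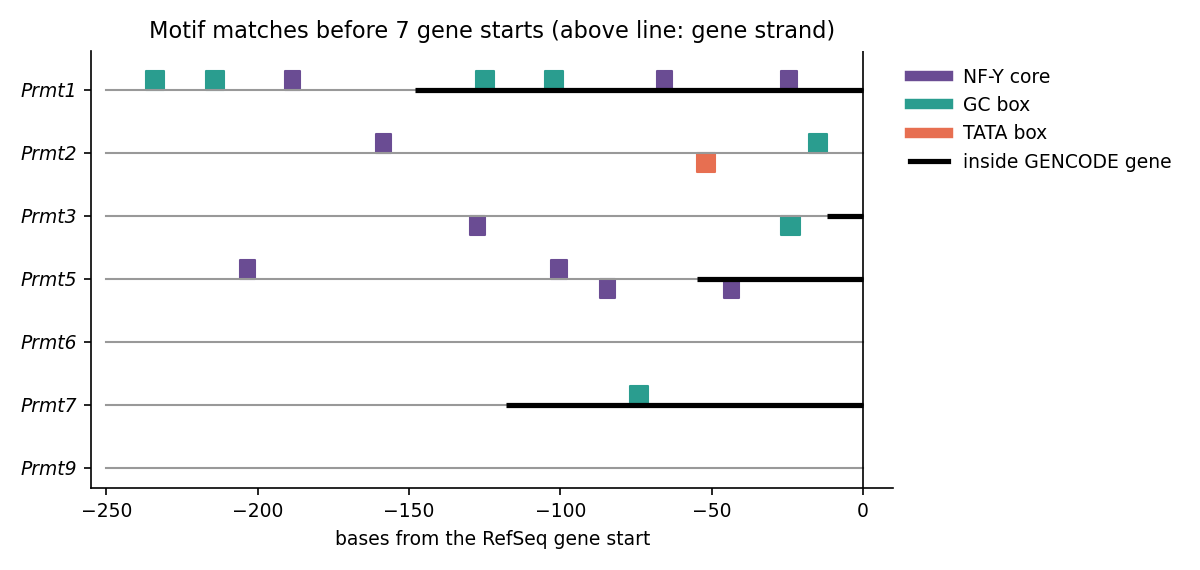
Positions of motif matches (boxes, above the line for the gene strand and below it for the other) in bases before the RefSeq gene start for 7 PRMT genes, with a thick black line where the window lies inside the GENCODE gene model. Prmt1 holds 3 NF-Y core and 4 GC box matches, Prmt5 holds 4 NF-Y core matches, and Prmt6 and Prmt9 hold none.

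Among the type I enzymes, Prmt1 encodes the main source of asymmetric dimethylarginine in most cells. The gene (ENSMUSG00000109324) spans chromosome 7, 44975989 to 44986568, on the minus strand of mm10. It had 690, 918 and 738 normalized counts across the controls and 572, 517 and 516 in Taf4asKO. Every Taf4asKO library was below the lowest control, and control replicate 2 stood highest. With means of 782 ± 120 and 535 ± 32 (SD, n = 3), Prmt1 differed on the log2 scale by -0.54 (SE 0.13, adjusted p by limma 0.0213) with a 95% confidence interval of -0.82 to -0.26. The study placed Prmt1 among its changed chromatin modifiers on these same libraries, so this is no independent evidence of the direction. The call was lost without Taf4asKO replicate 2 (-0.51, adjusted p by limma 0.1) and without Taf4asKO replicate 3 (-0.51, adjusted p by limma 0.095). With the mean level of the fibro-adipogenic markers as a covariate, the log2 fold change was -0.57 (adjusted p by limma 0.0276). In bulk RNA, fewer cells of a type and less RNA per cell cannot be told apart.

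Prmt3, a cytosolic zinc finger enzyme whose known substrate is the ribosomal protein RPS2, had the largest fall on the log2 scale of the 8 genes. Without Taf4asKO replicate 1 this order turned, with -0.584 for Prmt3 and -0.587 for Prmt1. Prmt3 (ENSMUSG00000030505) spans chromosome 7, 49778346 to 49858265, on the plus strand. It had 379, 447 and 409 normalized counts across the controls and 245, 259 and 289 in Taf4asKO. The lowest control library exceeded the highest Taf4asKO library by more than Taf4asKO libraries differed among themselves. With means of 411.7 ± 34.1 and 264.3 ± 22.5 (SD, n = 3), Prmt3 differed on the log2 scale by -0.64 (SE 0.13, adjusted p by limma 0.00964) with an interval of -0.92 to -0.36. It remained past the threshold in all but 1 of 17 alternative fits, the exception being the fit without Taf4asKO replicate 2 (-0.62, adjusted p by limma 0.0564). With the fibro-adipogenic covariate it was -0.70 (adjusted p by limma 0.0092). Exons of Prmt3 overlap Gm44822 on the same strand and Gm26856 on the opposite strand, and per the study's methods reads that fell on more than 1 gene were left out. The substrate gene Rps2 had 2094, 2559 and 2169 and then 2099, 1839 and 1880 normalized counts, with overlapping groups (log2 fold change -0.23, adjusted p by limma 0.194).

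Carm1, also known as Prmt4, encodes the coactivator-associated enzyme that methylates histone H3 as well as PAX7. The gene (ENSMUSG00000032185) lies on chromosome 9, 21546894 to 21589487, plus strand. Its values were 804, 837 and 780 normalized counts across the controls and 683, 631 and 643 in Taf4asKO. The spread within each group was small and the groups did not overlap. The means of 807 ± 28.6 and 652.3 ± 27.2 (SD, n = 3) gave a log2 fold change of -0.31 (SE 0.10, adjusted p by limma 0.0634), with an interval of -0.52 to -0.09. It was below the 1.3-fold limit and was not called in any of 17 alternative fits, where adjusted p ran from 0.0409 to 0.231. Its exons overlap Yipf2 on the opposite strand, and whether counting used the strand is not given in the sources used here.

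The remaining type I genes were the lowest of the family. Prmt6 (chromosome 3, 110246112 to 110250998, minus strand), which encodes a nuclear enzyme acting on histone H3, had 86, 127 and 77 normalized counts across the controls and 82, 88 and 75 in Taf4asKO. Only control replicate 2 stood apart, and without it the log2 fold change of -0.21 (SE 0.22, adjusted p by limma 0.574) became 0.0021. Prmt2 (chromosome 10, 76207222 to 76237865, minus strand), whose protein carries an SH3 domain, had 65, 72 and 74 and then 70, 84 and 74, with overlapping groups (0.11, SE 0.19, adjusted p by limma 0.753). The intervals of -0.70 to 0.28 for Prmt6 and -0.31 to 0.53 for Prmt2 leave a 1.3-fold rise undetermined for Prmt2 and a 1.3-fold fall undetermined for Prmt6. Prmt6 overlaps the antisense gene C130013H08Rik.

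Prmt5 (chromosome 14, 54507187 to 54517525, minus strand), which encodes the main source of symmetric dimethylarginine, had 416, 538 and 418 normalized counts across the controls and 426, 407 and 446 in Taf4asKO. Control replicate 2 was again highest, and the other 5 libraries lay between 407 and 446. The log2 fold change was -0.09 (SE 0.13, adjusted p by limma 0.69) with an interval of -0.38 to 0.20. Without control replicate 2 it was 0.031 (adjusted p by limma 0.845). Prmt9 (chromosome 8, 77549397 to 77581338, plus strand), whose protein is known to methylate the splicing factor SF3B2, had 177, 166 and 174 and then 188, 176 and 183 normalized counts. Its log2 fold change of 0.08 (SE 0.13, adjusted p by limma 0.733) had an interval of -0.21 to 0.38, just within the 1.3-fold limit of 0.379. Prmt7 (chromosome 8, 106210936 to 106252794, plus strand) had 312, 306 and 297 normalized counts across the controls and 307, 333 and 322 in Taf4asKO (0.07, SE 0.11, adjusted p by limma 0.723), with an interval of -0.18 to 0.32 that also stayed within that limit. Exons of Prmt7 overlap Smpd3 and Gm26786 on the opposite strand.

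**Figure D3:**
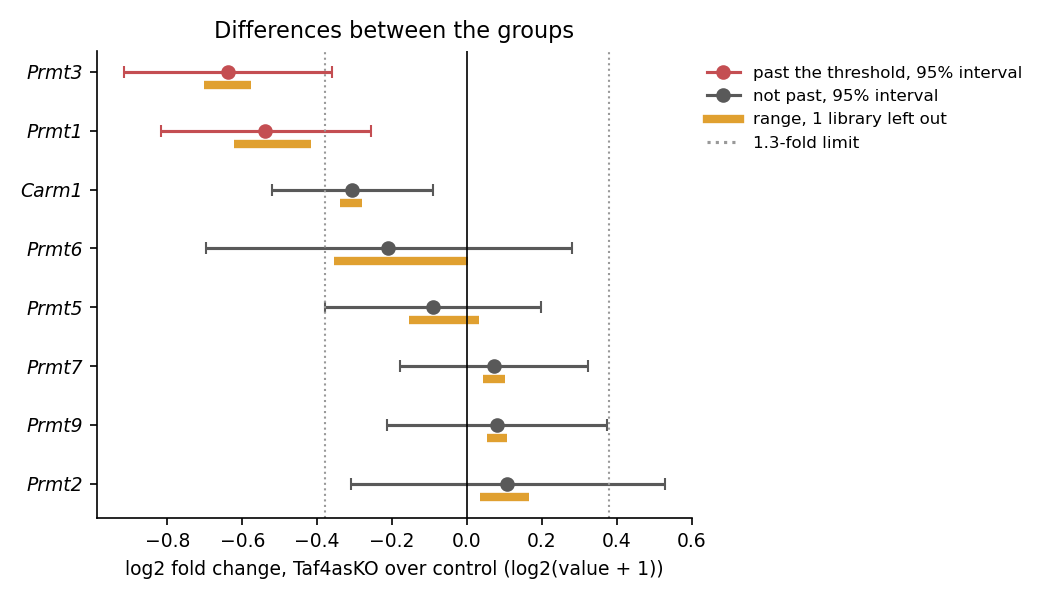
Log2 fold change of Taf4asKO over control on the log2(value + 1) scale (horizontal axis) for each PRMT gene, with its 95% confidence interval in yellow the range when 1 library was left out, and dotted lines at the 1.3-fold limit. Prmt3 (-0.64) and Prmt1 (-0.54), in red, passed the threshold, Carm1 (-0.31) had an interval below 0 without passing, and the intervals of the other 5 genes span 0.

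To compare levels between genes, values were divided by the length of the exons of each gene in kilobases. In control, Prmt1 was highest with 228 ± 35.1 normalized counts per kilobase (SD, n = 3), followed by Carm1 with 166 ± 5.9, Prmt5 with 116 ± 17.7 and Prmt3 with 68.7 ± 5.68. Prmt7 (49.8 ± 1.23), Prmt9 (30.3 ± 1), Prmt6 (23 ± 6.35) and Prmt2 (20.8 ± 1.4) had lower levels per kilobase. Neighbours in this order did not overlap in control, except that Prmt9 and Prmt6, and Prmt6 and Prmt2, overlapped and so did not differ beyond their spread. In Taf4asKO, Prmt1 (156 ± 9.36) was still ahead of Carm1 (134 ± 5.61) and Prmt5 (108 ± 4.93). Prmt3 was at 44.1 ± 3.75 per kilobase, below Prmt7 at 52.4 ± 2.13, and these groups of libraries did not overlap, the reverse of their order in control. Divided by the longest single transcript instead (2937 bases for Prmt3 and 3472 for Prmt7), the Taf4asKO values of these genes overlapped. Prmt2 and Prmt6, at 22.5 ± 2.13 and 19.5 ± 1.55, overlapped.

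**Figure D4:**
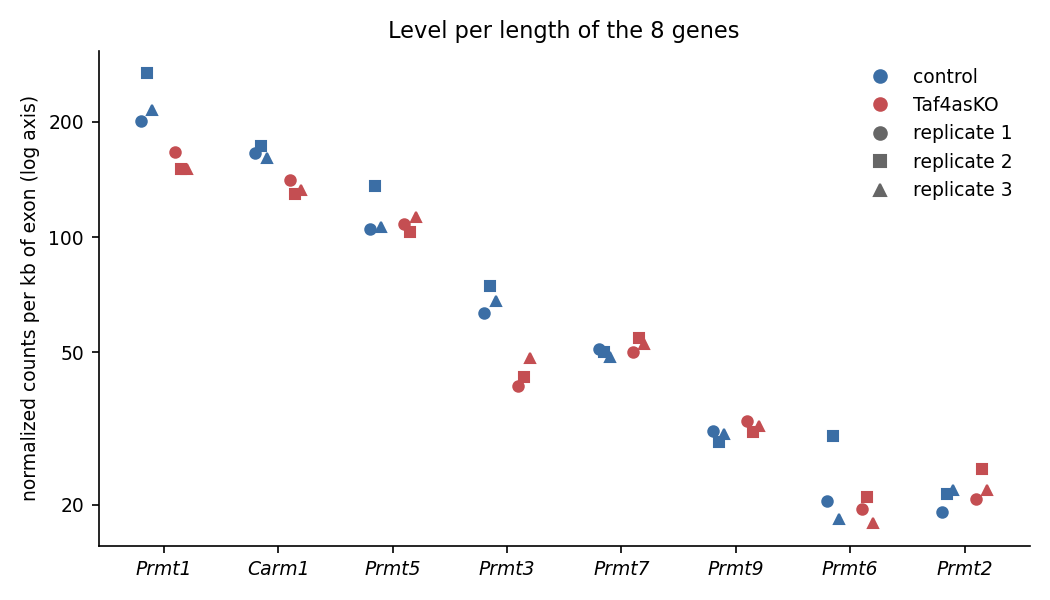
Normalized counts per kilobase of exon (log axis) of the 8 PRMT genes, ordered by their control mean, with blue for control, red for Taf4asKO and the marker shape for the replicate number. Prmt1, Carm1 and Prmt5 lead in both groups, and Prmt3 lies above Prmt7 in control and below it in Taf4asKO. The Taf4asKO values of Prmt3 and Prmt7 overlap when scaled to the longest single transcript instead.

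The make-up of the family was compared within each library, since a share does not depend on the scaling between libraries. Type I genes held 71.5%, 72.5% and 72.4% of the summed level per kilobase in control and 67.1%, 66.3% and 65.3% in Taf4asKO. All 3 Taf4asKO libraries were below all control libraries, a difference of -5.92 percentage points between the means. The two-sided exact permutation test gave p = 0.1, the smallest that 3 against 3 libraries allow, for this share and for the log2 ratio of Prmt1 to the other 7 genes. This test ignores the pairing by replicate number, and permuting within the 3 pairs could not reach 0.05 either. That ratio was -1.18, -0.939 and -1.07 in control and -1.31, -1.43 and -1.47 in Taf4asKO. With these 2 comparisons the Benjamini-Hochberg adjusted p was also 0.1 for each (exact permutation). The share of Prmt3 was 9.78% ± 0.356 and 7.75% ± 0.714 (SD, n = 3), that of Prmt1 32.4% ± 1.83 and 27.4% ± 1.21, and that of Carm1 23.8% ± 1.59 and 23.6% ± 0.565. The shares of the remaining type I genes were higher in Taf4asKO on average, at 2.97% ± 0.276 and 3.96% ± 0.45 for Prmt2 and 3.24% ± 0.575 and 3.42% ± 0.31 for Prmt6, so the lower type I share went with Prmt1 and Prmt3, both already called. The type II share was 20.7% ± 0.387 in control and 24.6% ± 0.799 in Taf4asKO, and the type III share, which is Prmt7 alone, was 7.13% ± 0.687 and 9.21% ± 0.548. Over the same libraries the summed level of the 8 genes was 703 ± 68.6 and 569 ± 10.8 normalized counts per kilobase, so the larger shares of type II and type III genes stood beside a lower sum.

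The genes whose pattern over the 6 libraries was most like that of a called member were found by root mean square distance of centred log2 values among 8977 genes. For Prmt1 these were Ankrd13b (distance 0.0264), Rpl32 (0.0374) and Rdh13 (0.0422). For Prmt3 they were Vars (0.0379), Cacna1a (0.0421) and Aars2 (0.0487). Ankrd13b had 269, 359 and 282 normalized counts across the controls and 217, 206 and 205 in Taf4asKO, with control replicate 2 highest as for Prmt1. Vars had 1210, 1424 and 1218 and then 777, 826 and 885.

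Genes that work with the PRMT enzymes were taken from 7 lists, of which 63 of 65 genes had a row and were tested. The threshold was passed downward by 6 and upward by 7 of them, against 6.71% and 5.93% of all tested genes, and their median log2 fold change was 0.007. The counts per list below stand beside these same shares, and no list was tested as a set. Among the other arginine methyltransferases, the mitochondrial enzyme Ndufaf7 (log2 fold change 0.09, adjusted p by limma 0.774) and Mettl23 (-0.12, adjusted p by limma 0.719) were not called. Prmt8 was not analysed here.

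Of the 7 genes listed as PRMT cofactors, 2 rose and none fell (median 0.21). Btg2, an antiproliferative protein that binds PRMT1, had 9803, 6761 and 10296 normalized counts across the controls and 21106, 13391 and 15191 in Taf4asKO. All Taf4asKO libraries were above all control libraries (log2 fold change 0.88, SE 0.19, adjusted p by limma 0.0162), and the call was lost without Taf4asKO replicate 1 (0.70, adjusted p by limma 0.0545). Tob1, of the same protein family, rose from 1008, 1106 and 903 to 3129, 2587 and 2326 (1.41, SE 0.13, adjusted p by limma 0.000187). Whether its protein binds a PRMT was not examined here. Btg1, a relative of Btg2 and Tob1, named here because its call changed with the fit, had 4030, 2942 and 4071 and then 5714, 4409 and 4577 (0.42, adjusted p by limma 0.0907), and passed when replicate numbers entered as a block (adjusted p by limma 0.0138). The partners of PRMT5, Wdr77, Clns1a, Riok1 and Coprs, had log2 fold changes from -0.27 to 0.21 and none passed.

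Of 6 methylarginine readers, which bind methylated arginine through Tudor domains, 1 rose and 5 did not pass (median -0.022). Tdrkh had 28, 61 and 34 normalized counts across the controls and 97, 86 and 88 in Taf4asKO (1.20, SE 0.29, adjusted p by limma 0.0228). Its groups were apart, but it overlaps Oaz3 on the opposite strand and lost its call in 6 of 17 alternative fits. Adjusted p by limma was 0.0538 without control replicate 1, 0.0589 without control replicate 3, 0.0851, 0.0837 and 0.0849 without Taf4asKO replicate 1, 2 or 3, and 0.0536 with the fibro-adipogenic covariate.

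Of the 6 genes of the methyl donor cycle, 1 rose and 5 did not pass (median 0.12). Mat2a, the catalytic subunit that makes S-adenosylmethionine, rose from 2777, 2541 and 3046 to 5710, 4919 and 5208 normalized counts (0.92, SE 0.10, adjusted p by limma 0.000658). The other 5 genes, among them its regulatory subunit Mat2b and the S-adenosylhomocysteine hydrolase Ahcy, had log2 fold changes from -0.21 to 0.28. Mat2a overlaps the antisense RNA Particl. Of the 4 tested genes of methylarginine removal, 1 fell and 3 did not pass (median 0.27). Ddah2, named for the dimethylarginine dimethylaminohydrolase family, fell from 1186, 903 and 962 to 458, 402 and 347 normalized counts (-1.33, SE 0.14, adjusted p by limma 0.000499). Whether its protein removes methylarginine was not examined here. Padi4 was not analysed here.

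Of 27 known PRMT substrates, 4 fell, 1 rose and 22 did not pass (median -0.17), beside 6.71% lower and 5.93% higher among all tested genes. Hnrnpa1, a splicing regulator, fell from 2969, 2993 and 3032 to 1797, 1758 and 1726 normalized counts (-0.77, SE 0.08, adjusted p by limma 0.000582), with little spread in either group. Lsm4, of the Sm-like RNA-binding ring, fell by 0.71 on the log2 scale (adjusted p by limma 0.00985), and lost its call with the adjustment for GC content and exon length (-0.48, adjusted p by limma 0.0641). The nucleolar protein Ncl fell by 0.54 (adjusted p by limma 0.00884), and the DNA break response protein Trp53bp1 by 0.52 (adjusted p by limma 0.00903). Ncl lost its call without Taf4asKO replicate 2 (adjusted p by limma 0.0566) and Trp53bp1 without Taf4asKO replicate 3 (0.0551). Cirbp, a cold-inducible RNA-binding protein, rose from 366, 385 and 605 to 705, 931 and 1018 normalized counts (0.99, SE 0.20, adjusted p by limma 0.0112), and lost its call without Taf4asKO replicate 2 (adjusted p by limma 0.0608) or 3 (0.0577). Fbl, the nucleolar methyltransferase fibrillarin, named here because its call changed with the fit, had 366, 508 and 355 and then 324, 261 and 278 (-0.50, adjusted p by limma 0.0707), and passed when replicate numbers entered as a block (adjusted p by limma 0.0426). Ncl hosts Snora75 and Trp53bp1 overlaps Tubgcp4 on the opposite strand.

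Of 11 genes that PRMT studies in MuSCs have named, 1 fell, 2 rose and 8 did not pass (median 0.18). Myf5, the myogenic factor whose transcription follows PAX7 methylation by CARM1, fell from 2261, 1888 and 2351 to 1294, 1147 and 1153 normalized counts (-0.85, SE 0.11, adjusted p by limma 0.00134). Pax7 itself had 12082, 12244 and 13007 and then 10669, 10363 and 11164 (-0.21, SE 0.09, adjusted p by limma 0.161). Its groups did not overlap, and it did not pass. Eya1, a transcriptional coactivator tied to PRMT1, rose from 535, 428 and 733 to 883, 895 and 1016 (0.75, SE 0.17, adjusted p by limma 0.02), and lost its call when Taf4asKO replicate 1, 2 or 3 was left out (adjusted p by limma 0.0573, 0.0733 and 0.0905). Cdkn1a, the cell cycle inhibitor tied to PRMT5 and PRMT7, rose from 1058, 589 and 660 to 3330, 1797 and 1700 (1.54, SE 0.27, adjusted p by limma 0.00553), with replicate 1 highest in each group.

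**Figure D5:**
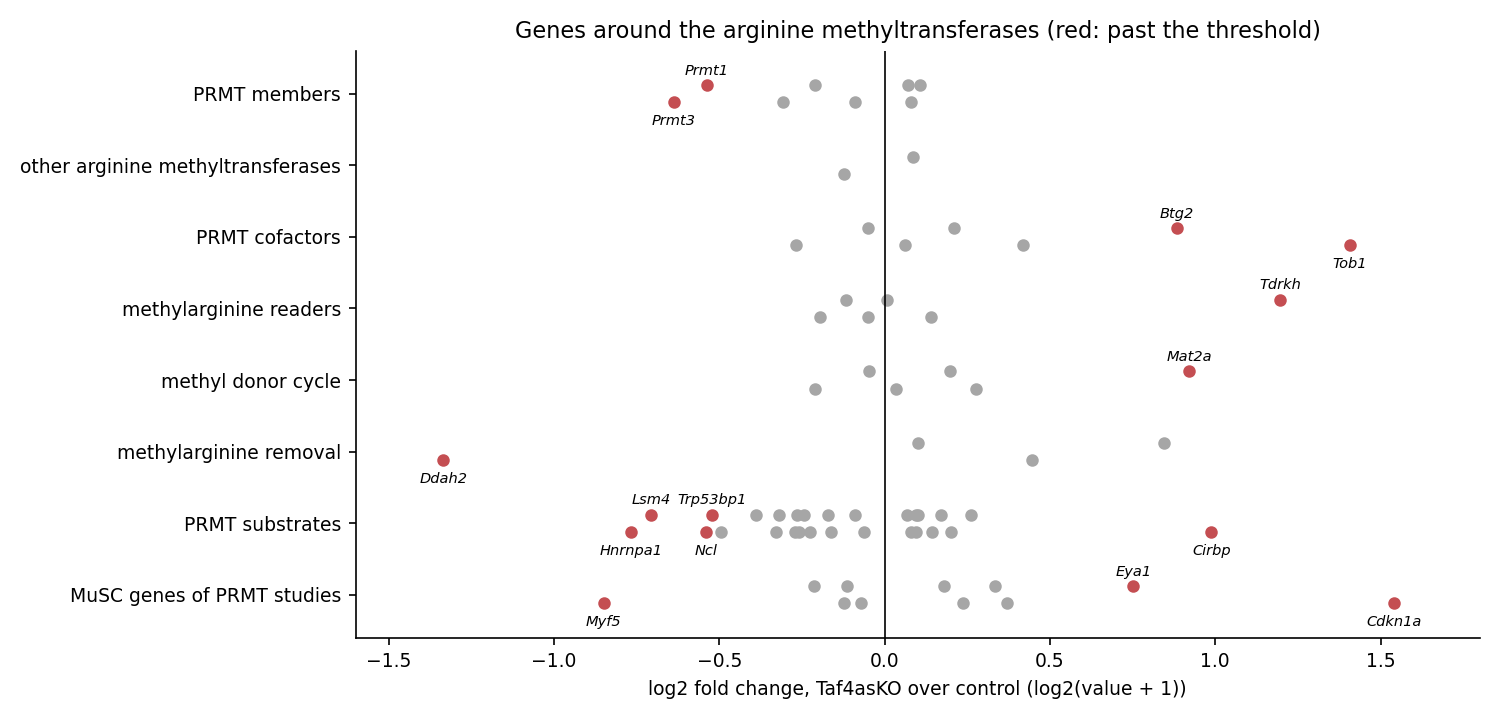
Log2 fold change of Taf4asKO over control on the log2(value + 1) scale (horizontal axis) for each tested gene of the PRMT family and of the 7 lists around it, with genes past the threshold in red and named. Grey points lie between -0.50 and 0.84, Ddah2 (-1.33) and Myf5 (-0.85) lie farthest to the left, and Cdkn1a (1.54) and Tob1 (1.41) farthest to the right.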

How the data were processed

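Per the labels, 10 ng of total RNA from sorted MuSCs was made into stranded libraries. According to the submitters' processing notes and the study's methods, the authors trimmed reads with Trimmomatic 0.39, aligned them to mm10 with STAR 2.6.0c, removed multi-mapping reads, counted reads over exons with featureCounts 1.6.0, leaving out those on several genes, and normalized with DESeq2 1.14.1. The deposited values are a score, namely counts divided by a size factor and rounded to whole numbers. The rounding was inferred from the values, since control replicate 1 left 9 whole numbers up to 60 unused. The table held 0 value columns without a sample. Raw depth is not known from the files, so totals of normalized counts stand in for it and no counting interval is given.

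Genes with a mean of at least 5 entered a two-sided test on log2(value + 1) by limma 3.58.1 (R 4.3.3, lmFit and eBayes with trend), which understates changes of low genes. No count model was used, because the values are normalized. The study's own limits on adjusted p, fold change and mean level were kept. GENCODE M21 (mm10) gave exon lengths, GC content and overlaps between genes. Among the members its coordinates differ from the deposited ones for Carm1 and Prmt6. Levels per kilobase of Carm1 and Prmt6 therefore use exon lengths of another gene model. RefSeq sequences are of build GRCm38.p6. The members and lists were chosen with earlier results of these data known. Genes named are the 8 members, list genes past the threshold (or the 2 of highest mean in a list with none), Pax7, Taf4, and the 3 genes of mean at least 100 most like each called member. Exceptions are named in the text.

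Sample titles give replicate numbers 1 to 3. After subtracting group means, libraries that share a number correlated at 0.235, 0.126 and 0.15 across genes and other pairs at -0.149 to 0.0141. A fit that takes this pairing as a replicate block was therefore made beside the unblocked one. Libraries of a group differed beyond counting noise (ratio of chi-square to degrees of freedom 3.83 to 41.1), so each counted as 1 sample. Alternatives were total-count, upper-quartile and trimmed-mean scaling, a pseudocount of 0.1, no filter or a mean of at least 20, limma-voom, a fibro-adipogenic covariate, adjustment for GC content and exon length with and without the block, and leaving out each of the 6 libraries. Figures were drawn with matplotlib 3.10.9.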

Additional observations from a re-analysis of the deposited data

How the results depend on the processing

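Prmt1 and Prmt3 passed in 15 and 16 of 17 alternative fits, and the number of PRMT genes past the threshold was 2 in all fits except those without Taf4asKO replicate 2 or 3, which gave 0 and 1, a range of 0 to 2. Prmt1 ranged from -0.62 to -0.42 and Prmt3 from -0.70 to -0.58 when 1 library was left out. With pairing by replicate block, adjusted p by limma was 0.00996 for Prmt1, 0.00399 for Prmt3 and 0.0505 for Carm1. The block changed no call among the PRMT and list genes other than Btg1 and Fbl. It raised all genes called higher from 1101 to 1688, and to 1720 with the adjustment for GC content and exon length. When 1 library was left out, 960 to 3121 genes passed in place of 2347, 595 to 1505 of them lower and 341 to 1616 higher. Over all 17 fits, 9 to 15 of the list genes passed in place of 13. The cause was not tested.

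Prmt5 (-0.09) ranged from -0.15 to 0.031 and Prmt6 (-0.21) from -0.36 to 0.0021 when 1 library was left out. Prmt9 (0.08) was -0.029 with the adjustment for GC content and exon length, with or without the replicate block. Mettl23 was 0.013 with the fibro-adipogenic covariate and ranged from -0.24 to 0.00048 when 1 library was left out. With that covariate the list medians were 0.031 for other arginine methyltransferases, 0.0052 for readers and -0.022 for the methyl donor cycle. When 1 library was left out they ranged, in the same order, from -0.11 to 0.036, from -0.076 to 0.076 and from -0.014 to 0.222. The other list medians kept their sign and ranged from 0.089 to 0.299 (cofactors), 0.031 to 0.438 (removal), -0.258 to -0.108 (substrates) and 0.069 to 0.238 (MuSC genes). The median of methylarginine removal was -0.617 with a mean of at least 20, which leaves fewer genes in the list.

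Scaled to the longest single transcript, control levels per kilobase were 364 for Prmt1, 225 for Carm1, 170 for Prmt5, 140 for Prmt3, 87.8 for Prmt7, 44.3 for Prmt9, 31.6 for Prmt6 and 33.5 for Prmt2, which exchanged only the last pair. In Taf4asKO, Prmt3 and Prmt7 overlapped on that scale, so their order there was not settled. The difference in Prmt1 ratio (-0.339) ranged from -0.396 to -0.277 and that in type I share (-5.92) from -6.36 to -5.45 when 1 library was left out. Values of Prmt2 and Prmt6 are low, and differences under their intervals were not detectable with 3 libraries per group.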

Other observations

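Genes next to or within the PRMT gene models were read as well, and were named after their values were seen. Gm44822, which lies inside Prmt3 on the same strand (chromosome 7, 49814202 to 49820590), had 38, 50 and 76 normalized counts across the controls and 26, 25 and 32 in Taf4asKO. The groups did not overlap (log2 fold change -0.91, SE 0.30, adjusted p by limma 0.0738), and it was called lower when replicate numbers entered as a block (adjusted p by limma 0.0356). Yipf2, which meets the end of Carm1 on the opposite strand, had 168, 142 and 161 and then 130, 128 and 126 normalized counts (-0.29, SE 0.15, adjusted p by limma 0.228). Slc7a6os, which starts next to the start of Prmt7 and runs the other way, had 232, 241 and 188 and then 246, 212 and 232 (0.07, SE 0.14, adjusted p by limma 0.802). Gm15545, on the opposite strand before the start of Prmt1, had 38, 32 and 36 and then 26, 33 and 23 (-0.37, SE 0.27, adjusted p by limma 0.395).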
